A study of Mus musculus with 6 samples.

Results

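The 31 genes described here encode the mitochondrial fatty acid beta-oxidation machinery and enzymes of ketone body metabolism. They were chosen by name: a row of the deposited table belonged to the set when its gene name was on the list, and all 31 names were found among the 55536 genes of the table. RNA sequencing was done on 6 livers of male C57BL/6 mice, 3 from Sirt5+/+ animals and 3 from Sirt5-/- animals. Sirt5 encodes a mitochondrial sirtuin that removes succinyl, malonyl and glutaryl groups from lysines of metabolic enzymes. Mice of both genotypes were 4 weeks old when they received, by hydrodynamic injection, 10 µg of the transposase plasmid Act-PBase together with 50 µg of a plasmid carrying myc-YAP5SA, a constitutively active form of the growth regulator YAP, behind the CMV promoter. Livers were taken 20 days later. The treatment text of the labels also names an RFP plasmid, but all 6 livers are labelled YAP5SA, so every comparison below is between genotypes under YAP5SA, with no liver without it. Hydrodynamic injection delivers plasmid to a part of the hepatocytes, and the pieces of liver sequenced hold injected and other cells together. The labels do not say that each liver is a separate animal, so the p-values speak of the spread among these 6 samples, which may be partly technical.

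Beta-oxidation shortens fatty acids inside mitochondria. A fatty acid is first bound to coenzyme A, passed through the carnitine shuttle into the matrix, and then goes round a cycle of dehydrogenation, hydration, a further dehydrogenation and thiolysis, each turn of which releases acetyl-CoA. In fasting liver much of this acetyl-CoA is turned into ketone bodies, which the liver exports because hepatocytes hardly make Oxct1, the enzyme needed to use them. Many of these genes are targets of the nuclear receptor PPAR alpha, which binds direct repeats of a hexamer, while NRF1 binds at the promoters of many nuclear genes for mitochondrial proteins.

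The promoters of the members are described first, and their part in the members' changes was not tested. RefSeq windows of 300 bases (250 before and 50 after the start of the transcript, build GRCm38.p6) were matched for 26 of the 31 symbols. Both strands were searched for 4 motifs: the nuclear receptor hexamer AGGTCA with no mismatch, the direct repeat (AGGTCA, 1 base of any kind N, then AGGTCA again) with up to 2 mismatches, the oestrogen-related receptor site (TCA followed by AGGTCA) with up to 1 mismatch, and the NRF1 site (GCGCA followed by its reverse complement TGCGC) with up to 1 mismatch. The hexamer lies within the direct repeat and within the receptor site, so these matches can overlap. The 26 members had 28 windows, and a member was counted when any of its windows held the motif. The shares over all windows and over tested genes are per window, so the 2 measures differ slightly. The direct repeat was found at 3 of 26 members, or 11.5%, against 3.86% of all 32851 windows and 3.09% of the 13992 windows of genes tested here. The 3 stretches, with the match in capitals and written 5′ to 3′ in the direction of the gene, come from chr7:140116484-140116512 (- strand) for Echs1, chr9:55512300-55512328 (- strand) for Etfa, chr9:108662134-108662162 (+ strand) for Slc25a20:
Echs1: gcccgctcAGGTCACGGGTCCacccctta
Etfa: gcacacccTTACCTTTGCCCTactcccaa
Slc25a20: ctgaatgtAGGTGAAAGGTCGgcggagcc
In Etfa the match is on the opposite strand, and in Slc25a20 it begins at base 7 after the start. The NRF1 site was found at 5 of 26 members, or 19.2%, against 6.33% of all windows and 11.7% of those of tested genes. Its stretches, again with the match in capitals, come from chr5:121660501-121660526 (- strand) for Acad10, chr5:121618965-121618990 (- strand) for Acad12, chr3:153944786-153944811 (- strand) for Acadm, chr7:43444053-43444078 (+ strand) for Etfb, chr3:79628878-79628903 (- strand) for Etfdh:
Acad10: ccccgggcGCGCATGCGCtttcgaca
Acad12: cccaagtcGCGCATGCGCtttcgtca
Acadm: ggagcaggACGCATGCGCagagggcc
Etfb: gttgcggcGCGCAGGCGCagagacag
Etfdh: cttctaggGCGCATGCGCacacgcga
Acad10, Acad12 and Etfdh hold the NRF1 letters without a mismatch. Acad10 and Acad12 are neighbours that share transcript sequence, and the bases after their matches are nearly the same. They may therefore not be separate finds. The receptor site was found at 2 of 26 members (7.69%, against 7.46% of all windows and 5.34% of those of tested genes), namely Acsl5 and Bdh1, and the hexamer at 4 of 26 (15.4%, against 16.3% and 13.2%), namely Acadm, Acadvl, Cpt1a and Echs1. These are matches of letters, not measured binding.

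Hadha and Hadhb encode the alpha and beta subunits of the mitochondrial trifunctional protein and are transcribed away from each other on chromosome 5. In GENCODE M21 Hadha lies at chr5:30118304-30155162 (minus strand) and Hadhb at chr5:30155248-30184593 (plus strand), and the RefSeq starts are 273 bases apart. Their promoter windows therefore share 228 bases, in capitals in the Hadhb window at chr5:30155003-30155302 (plus strand):
Hadhb: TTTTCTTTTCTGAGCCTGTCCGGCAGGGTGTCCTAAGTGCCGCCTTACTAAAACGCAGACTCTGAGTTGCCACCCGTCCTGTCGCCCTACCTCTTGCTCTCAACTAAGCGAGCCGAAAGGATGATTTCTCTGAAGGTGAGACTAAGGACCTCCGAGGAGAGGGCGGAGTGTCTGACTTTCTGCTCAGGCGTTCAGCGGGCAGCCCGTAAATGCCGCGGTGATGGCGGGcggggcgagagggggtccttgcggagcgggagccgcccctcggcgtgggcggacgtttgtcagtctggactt
The window held none of the 4 motifs, which says only that these letters are not in it.

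Counts per library ranged from 19307808 to 24330797. The share of counts from the mitochondrial genome was 7.20, 6.58 and 46.4% in Sirt5+/+ livers 1 to 3 and 40.8, 21.5 and 17.5% in Sirt5-/- livers 1 to 3, and 7 nuclear copies of these genes took a further 2.15 to 14.4%. Sirt5 itself stood at 16.7, 15.7 and 12.6 CPM in Sirt5+/+ livers and at 0.817, 1.2405 and 0.497 CPM in Sirt5-/- livers, as the labels say. CPM are counts scaled to a common library size with TMM factors, which set the typical gene to be equal between libraries. Hepatocyte markers summed to 133300, 101800 and 106700 CPM in Sirt5+/+ livers and to 44610, 32790 and 24210 CPM in Sirt5-/- livers. Of the 18 hepatocyte markers measured, 15 fell by the test described next, against 17.1% of all genes tested, with a median log2 fold change of -1.97.

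Of the 31 members, 27 were lower in Sirt5-/- livers and 2 were higher, and 2 did not pass the test (edgeR quasi-likelihood test, adjusted p under 0.05 over 14799 genes). Among all genes tested 17.1% were lower and 17.4% were higher. The members' median log2 fold change was -1.74, against -0.08 over all genes tested. All 27 lower members fell by over 2-fold and 13 of them by over 4-fold. In 29 of 31 members the CPM of the genotypes did not overlap, 27 lower and 2 higher, against 24% of all genes not overlapping lower and 25.8% higher. The authors' deposited table gives the same call for all 31 members.

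The size of the fall depended on the scaling. With plain library totals the median of all genes moved to 0.60, the members' median was -1.24, and 5 members passed as lower, against 2.2% of all genes tested. With totals taken outside mitochondrially encoded genes and their copies, the medians were 0.78 over all genes and -0.92 over members, and 14 members passed as lower, against 4.89% of all genes tested. In the deposited TPM, in which mitochondrial transcripts take part of the total, 1 member was lower and 2 were higher without overlap between genotypes, against 1.37 and 21.5% of all genes tested. With TPM outside mitochondrial genes 12 were lower and 2 higher without overlap, against 4.28 and 42.6%. The members' median minus that of all genes was -1.66 with TMM factors, -1.83 with library totals and -1.71 with totals outside mitochondrial genes. A change of scaling moves all genes by nearly the same amount, so this difference could hardly change and cannot decide between the scalings. Acot2 and Oxct1 were called higher under each of these scalings. Higher calls over all genes tested numbered 2575 of 14799 with TMM factors and 2438 of 14799 with library totals. With totals outside mitochondrial genes they numbered 5622 of 15107. Higher calls were thus less frequent among the members than among all genes in each of these fits.

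In bulk tissue fewer hepatocytes and less RNA per hepatocyte cannot be told apart, and markers of other cells moved with the genotype. Summed macrophage markers ran from 388.6 to 514.8 CPM in Sirt5+/+ livers and from 1598 to 3224 CPM in Sirt5-/- livers, with 7 of 8 higher and Clec4f, a Kupffer cell marker, lower. Stellate cell and fibroblast markers ran from 402.9 to 670.2 and from 2134 to 2335 CPM, with 4 of 8 higher. Bile duct markers ran from 77.3 to 386.4 and from 739.5 to 819.1 CPM, with 2 of 6 higher, Krt7 and Krt19. Most of this sum was Spp1, at 58.3, 117 and 351 against 536, 617 and 535 CPM, which did not pass (edgeR adjusted p = 0.0621). T and NK cell markers ran from 2.46 to 4.32 and from 16.6 to 19.3 CPM, with 3 of 5 higher. Endothelial markers ran from 83.2 to 136.8 and from 53.8 to 67.7 CPM, with 3 of 6 lower. Of 3 neutrophil markers 1 was tested and did not pass (0.81 to 1.83 and 0.66 to 2.01 CPM). Of 3 adipocyte markers, Adipoq and Plin1 were too low to be tested and Lep was at 0 in the Sirt5+/+ livers and at 0.496 to 0.583 CPM in the Sirt5-/- livers. Beside these marker counts, 17.4% of all genes tested were higher and 17.1% lower. The part of these cells in the members' changes was not tested.

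**Figure D1:**
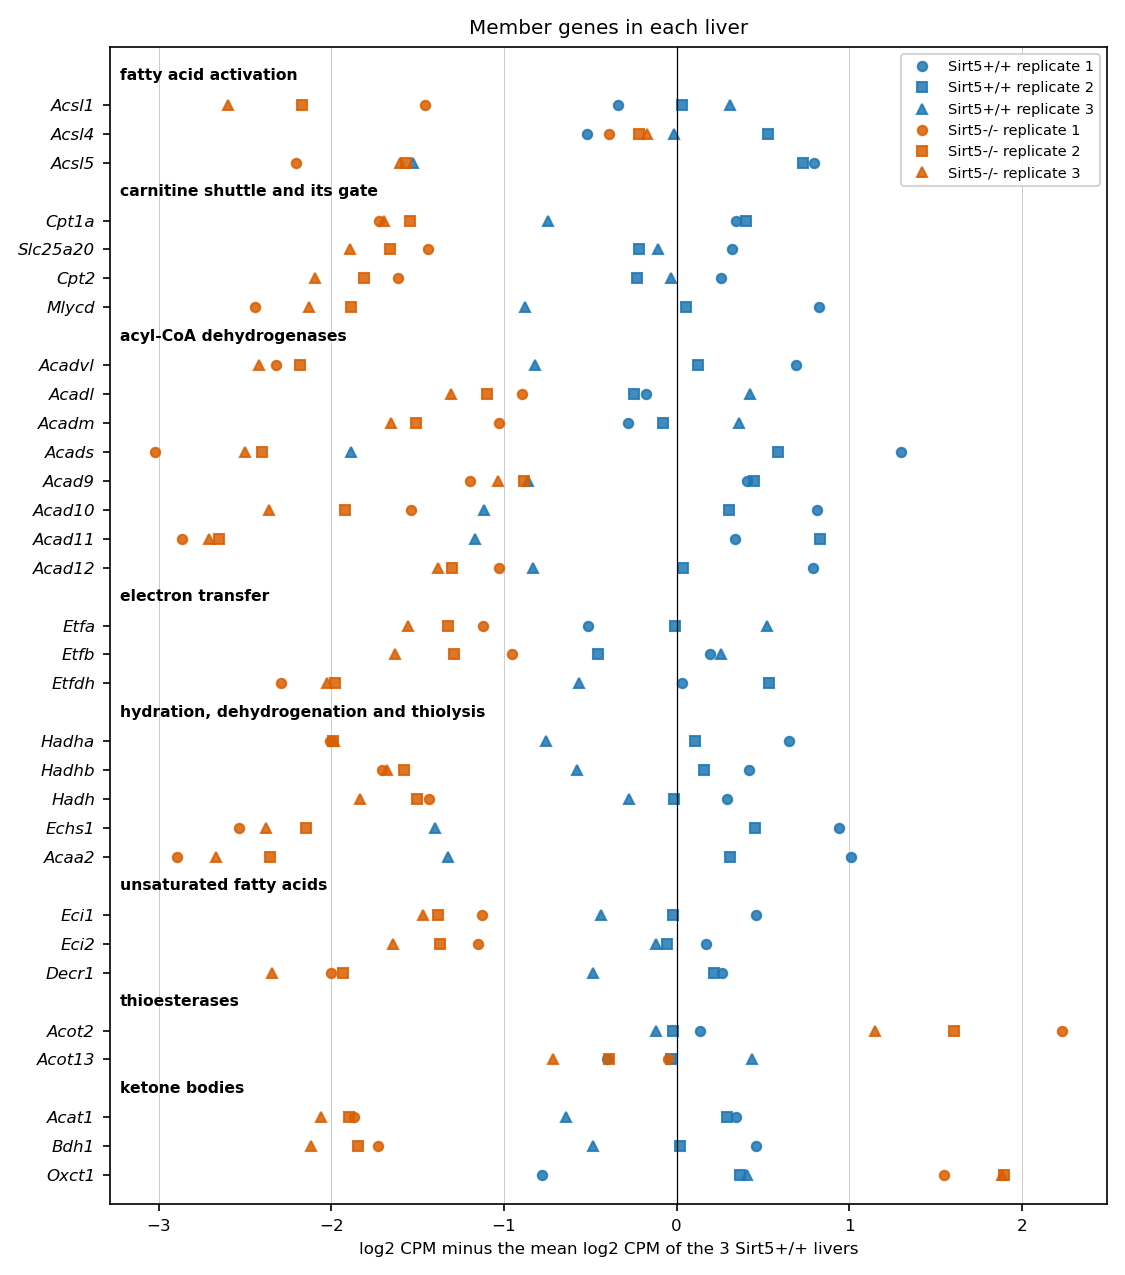
Level of each member in each of the 6 livers, as log2 CPM minus the mean log2 CPM of the 3 Sirt5+/+ livers (x axis), with members on the y axis grouped by role. Points of the Sirt5-/- livers lie to the left of all Sirt5+/+ points for 27 members and to the right for Acot2 and Oxct1, and the third Sirt5+/+ liver is the lowest of its genotype for 21 members.

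Of the 3 acyl-CoA synthetases, which bind fatty acids to coenzyme A, 2 fell. Acsl1, the main long-chain synthetase of liver, stood at 513, 663 and 805 CPM in the Sirt5+/+ livers and at 236, 145 and 107 CPM in the Sirt5-/- livers, a 4.06-fold fall (log2 fold change -2.02, SE 0.40, adjusted p = 0.00657 by edgeR). The highest Sirt5-/- liver lay well under the lowest Sirt5+/+ liver. Acsl5 stood at 224, 214 and 44.8 CPM in Sirt5+/+ livers and at 28.0, 43.5 and 42.4 CPM in Sirt5-/- livers, so that the third Sirt5+/+ liver was barely above the other genotype. Its log2 fold change was -2.08 (SE 0.56, edgeR adjusted p = 0.0215), and the call was lost without any 1 of the other 5 livers, with an adjusted p of up to 0.084. Acsl4, which prefers arachidonic acid and is known from ferroptosis, stood at 13.5, 27.9 and 19.1 CPM in Sirt5+/+ livers and at 14.7, 16.6 and 17.1 CPM in Sirt5-/- livers. The genotypes overlapped, and the test did not pass (log2 fold change -0.32, SE 0.29, edgeR adjusted p = 0.42).

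All 4 genes of the carnitine shuttle and its gate fell. Cpt1a, the outer membrane carnitine palmitoyltransferase that commits fatty acids to oxidation, stood at 180, 187 and 84.8 CPM in Sirt5+/+ livers and at 42.9, 48.6 and 43.8 CPM in Sirt5-/- livers (log2 fold change -1.74, SE 0.35, edgeR adjusted p = 0.00654). Slc25a20, the carnitine-acylcarnitine carrier whose direct repeat is printed above, stood at 84.1, 57.8 and 62.5 against 24.8, 21.2 and 18.1 CPM (log2 fold change -1.67, SE 0.26, edgeR adjusted p = 0.00297). Cpt2, which returns the acyl group to coenzyme A in the matrix, stood at 115, 81.8 and 93.7 against 31.3, 27.3 and 22.5 CPM (log2 fold change -1.84, SE 0.26, edgeR adjusted p = 0.00233). In Slc25a20 and Cpt2 the 3 Sirt5+/+ livers lay close together, whereas in Cpt1a the third was well under the other two. Mlycd, malonyl-CoA decarboxylase, removes the inhibitor of Cpt1a and was at 112, 66.0 and 34.6 against 11.7, 17.2 and 14.6 CPM (log2 fold change -2.29, SE 0.43, edgeR adjusted p = 0.00513). The 4 calls held with each liver left out in turn.

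Acyl-CoA dehydrogenases are flavoproteins that carry out the first step of each turn and differ in the chain length they accept, and all 8 fell. For very long chains, Acadvl stood at 384, 259 and 135 CPM in Sirt5+/+ livers and at 47.6, 52.5 and 44.4 CPM in Sirt5-/- livers (log2 fold change -2.43, SE 0.40, edgeR adjusted p = 0.0036). For long chains, Acadl stood at 127, 121 and 194 against 77.5, 67.3 and 58.2 CPM (log2 fold change -1.12, SE 0.29, edgeR adjusted p = 0.0186). For medium chains, Acadm stood at 132, 151 and 205 against 78.3, 56.0 and 50.8 CPM (log2 fold change -1.40, SE 0.30, edgeR adjusted p = 0.00912). The third Sirt5+/+ liver was the highest of all livers for Acadl and Acadm but the lowest of its genotype for Acadvl. Acads, for short chains, stood at 191, 117 and 21.0 against 9.56, 14.7 and 13.7 CPM, a log2 fold change of -3.11 (SE 0.69, edgeR adjusted p = 0.00986), which was -2.41 without Sirt5+/+ liver 1. The third Sirt5+/+ liver was close to the Sirt5-/- livers. Acad11, which acts on longer chains, stood at 112, 157 and 39.4 against 12.2, 14.1 and 13.6 CPM (log2 fold change -2.95, SE 0.48, edgeR adjusted p = 0.00327). The calls of Acadl and Acadm were lost without Sirt5-/- liver 2 or liver 3, at adjusted p of 0.0594 to 0.0979.

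The 3 remaining dehydrogenases were less abundant. Acad9, also an assembly factor of respiratory complex I, stood at 19.9, 20.5 and 8.25 CPM in Sirt5+/+ livers and at 6.53, 8.13 and 7.32 CPM in Sirt5-/- livers, the third Sirt5+/+ liver being scarcely above the second Sirt5-/- liver (log2 fold change -1.16, SE 0.35, edgeR adjusted p = 0.0342). Acad10 stood at 21.4, 15.03 and 5.63 against 4.20, 3.23 and 2.37 CPM, and its neighbour Acad12 at 10.1, 6.00 and 3.28 against 2.86, 2.37 and 2.24 CPM. Both fell, with log2 fold changes of -2.13 (SE 0.47) and -1.40 (SE 0.42) and edgeR adjusted p of 0.0102 and 0.0338. Acad10 and Acad12 share part of their transcript sequence (24.2 and 24.7% of 31-base words are also found in other genes), so their reads may be split uncertainly, but their sum also separated the genotypes, at 31.5, 21.0 and 8.91 against 7.06, 5.60 and 4.61 CPM. Of the other members, the share was 49.9% for Etfb, 33.2% for Acadvl, which overlaps Dvl2 on the opposite strand, 23.7% for Hadhb and 20.6% for Acad9. It was 37.8% for Acot2, taken up below, and at most 17.3% (Eci2) for the rest. A share of words is not a share of reads, and how far it affects their values was not tested. The calls of Acad9 and Acad12 were lost when any 1 liver other than the third Sirt5+/+ was left out (adjusted p up to 0.118 and 0.128), and that of Acad10 without Sirt5-/- liver 3 (0.0555).

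The dehydrogenases hand electrons to the flavoprotein ETF and on to ubiquinone, and the 3 genes of this step fell. Etfa, the alpha subunit, stood at 154, 219 and 316 CPM in Sirt5+/+ livers and at 101, 87.9 and 75.0 CPM in Sirt5-/- livers (log2 fold change -1.38, SE 0.34, edgeR adjusted p = 0.0143). Etfb, the beta subunit, stood at 356, 228 and 373 against 161, 127 and 101 CPM (log2 fold change -1.30, SE 0.33, edgeR adjusted p = 0.0175). Both subunits were highest in the third Sirt5+/+ liver. Etfdh, the ubiquinone oxidoreductase, stood at 71.9, 102 and 47.4 against 14.3, 17.9 and 17.3 CPM and was lowest in that liver among the Sirt5+/+ (log2 fold change -2.16, SE 0.32, edgeR adjusted p = 0.0026). The calls of Etfa and Etfb were lost without Sirt5-/- liver 2 or liver 3, at adjusted p of 0.0757 to 0.0943.

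The later steps of the cycle use the trifunctional protein for long chains and separate enzymes for shorter chains, and all 5 members fell. Hadha stood at 263, 180 and 99.2 CPM in Sirt5+/+ livers and at 41.6, 42.2 and 42.4 CPM in Sirt5-/- livers (log2 fold change -2.10, SE 0.37, edgeR adjusted p = 0.00441). Hadhb, which shares the promoter stretch printed above, stood at 111, 93.0 and 55.8 against 25.5, 27.9 and 26.0 CPM (log2 fold change -1.71, SE 0.30, edgeR adjusted p = 0.00418). Both genes had nearly level values in the Sirt5-/- livers. They had the same order among the Sirt5+/+ livers, but so did Hadh, Echs1 and Acaa2, so this order is not particular to the pair. Hadh, the short-chain hydroxyacyl-CoA dehydrogenase, stood at 217, 175 and 146 against 65.7, 62.4 and 49.6 CPM (log2 fold change -1.60, SE 0.28, edgeR adjusted p = 0.00412). Echs1, the short-chain enoyl-CoA hydratase, stood at 234, 167 and 46.2 against 21.0, 27.5 and 23.5 CPM (log2 fold change -2.64, SE 0.54, edgeR adjusted p = 0.00727). In Echs1 and Acaa2 the third Sirt5+/+ liver lay nearer to the Sirt5-/- livers than to the other Sirt5+/+ livers. Acaa2, the mitochondrial thiolase and by mean TPM (a level per transcript length) the first of the members in Sirt5+/+ livers, with Etfb next and not apart beyond the spread, stood at 947, 581 and 188 against 63.2, 91.7 and 74.0 CPM (log2 fold change -2.91, SE 0.57, edgeR adjusted p = 0.00627), and its log2 fold change was -2.30 without Sirt5+/+ liver 1. These 5 calls held with each liver left out in turn.

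Double bonds in unsaturated fatty acids need isomerases and a reductase before the cycle can go on, and the 3 genes fell. Decr1, the dienoyl-CoA reductase, stood at 86.5, 84.0 and 51.6 CPM in Sirt5+/+ livers and at 18.0, 18.9 and 14.2 CPM in Sirt5-/- livers (log2 fold change -2.12, SE 0.29, edgeR adjusted p = 0.00214). The isomerase Eci1 stood at 97.3, 69.6 and 52.1 against 32.4, 27.1 and 25.5 CPM (log2 fold change -1.37, SE 0.29, edgeR adjusted p = 0.0085). The isomerase Eci2 stood at 147, 126 and 120 against 58.8, 50.6 and 41.8 CPM (log2 fold change -1.38, SE 0.26, edgeR adjusted p = 0.00522). All 3 separated the genotypes, and the call of Eci1 was lost without Sirt5-/- liver 2 (adjusted p = 0.0544) or liver 3 (0.0545).

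Thioesterases release free fatty acids from coenzyme A, against the direction of activation, and neither of the 2 members fell past the test. Acot2, a matrix enzyme, stood at 2.18, 1.96 and 1.83 CPM in Sirt5+/+ livers and at 9.33, 6.06 and 4.42 CPM in Sirt5-/- livers, 3.28-fold higher (log2 fold change 1.71, SE 0.37, edgeR adjusted p = 0.0086). Every Sirt5-/- liver was above every Sirt5+/+ liver, and the call held with each liver left out in turn. Of its 31-base words 37.8% also occur in other genes, 29.9% in its cytosolic relative Acot1, which was chosen here after its values were seen and stood at 10.8, 9.25 and 4.06 against 0.641, 1.32 and 1.66 CPM. Summed, Acot1 and Acot2 gave 13.0, 11.2 and 5.90 CPM in Sirt5+/+ livers and 9.97, 7.39 and 6.07 CPM in Sirt5-/- livers, which overlapped. The part of the division of reads between the 2 genes in the rise of Acot2 was not tested. Acot13 stood at 30.6, 39.5 and 54.9 against 39.1, 30.8 and 24.7 CPM, overlapping, and did not pass (log2 fold change -0.40, SE 0.30, edgeR adjusted p = 0.329). With library totals the fitted log2 changes of Acsl4 and Acot13 turned to 0.28 and 0.29, and with totals outside mitochondrial genes to 0.50 and 0.45, none of which passed.

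Of the 3 ketone body enzymes on the list, Acat1 and Bdh1, which take part in both the making and the use of ketone bodies, fell, and Oxct1, needed only for their use, rose. Acat1, the mitochondrial acetoacetyl-CoA thiolase, stood at 249, 240 and 126 CPM in Sirt5+/+ livers and at 53.7, 52.6 and 47.0 CPM in Sirt5-/- livers, a 4.01-fold fall (SE 0.33 on the log2 scale, edgeR adjusted p = 0.00349). Bdh1, which reduces acetoacetate to hydroxybutyrate, stood at 237, 175 and 123 against 52.0, 47.9 and 39.7 CPM (log2 fold change -1.94, SE 0.32, edgeR adjusted p = 0.00344). In CPM both genes separated the genotypes. In the deposited TPM they did not, with Acat1 at 138.2, 166.7 and 21.5 TPM in Sirt5+/+ livers and at 27.0, 53.1 and 46.5 TPM in Sirt5-/- livers, and Bdh1 at 127.0, 114.0 and 19.9 against 18.4, 32.2 and 32.8 TPM. Oxct1, the transferase that activates acetoacetate for oxidation, stood at 4.32, 9.57 and 9.83 CPM in Sirt5+/+ livers and at 21.7, 27.5 and 27.4 CPM in Sirt5-/- livers, 3.25-fold higher (log2 fold change 1.70, SE 0.34, edgeR adjusted p = 0.00647). Every Sirt5-/- liver was above every Sirt5+/+ liver, and the call held with each liver left out. On the TPM scale Oxct1 remained a minor transcript, with a mean of 1.89 ± 1.47 TPM (SD, n = 3) in Sirt5+/+ livers and 8.62 ± 3.96 TPM (SD, n = 3) in Sirt5-/- livers.

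**Figure D2:**
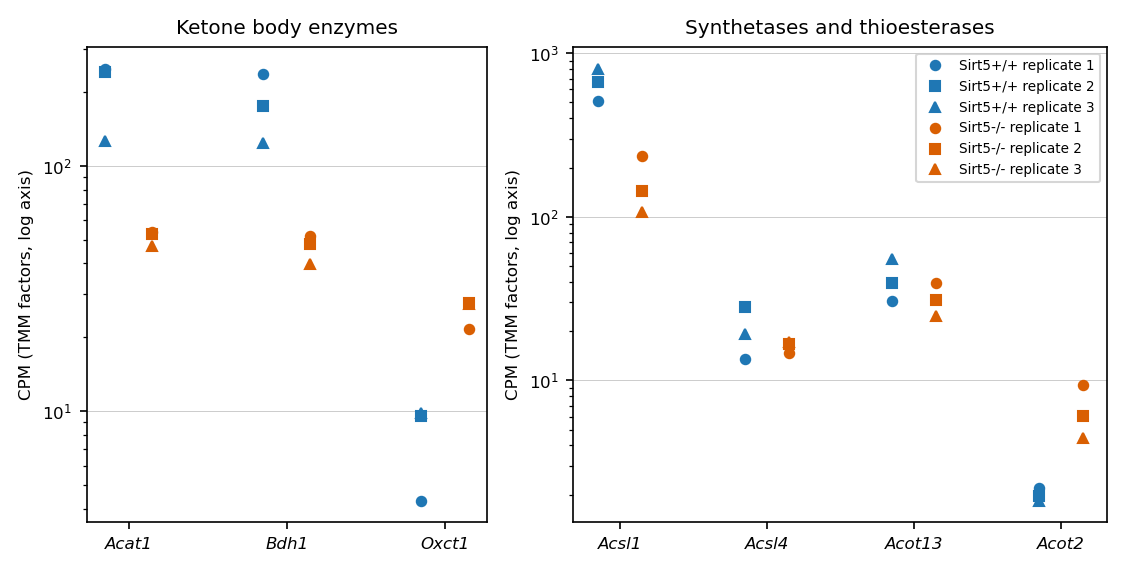
CPM (log axis) in each liver of ketone body enzymes (left) and of synthetases and thioesterases (right), 1 point a liver, circles, squares and triangles for replicates 1 to 3. Acat1, Bdh1 and Acsl1 are lower in all Sirt5-/- livers, Oxct1 and Acot2 are higher in all of them, and Acsl4 and Acot13 overlap.

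Of 5 further lists of genes around the pathway, 44 of 46 genes in the table were tested. Of these, 30 fell, 2 rose and 12 did not pass, with a median log2 fold change of -1.58. Among all genes tested 17.1% were lower and 17.4% higher, and the counts by list stand beside the same shares. By list, 4 of 7 genes of carnitine and coenzyme A supply fell. The smallest p-values there were those of the coenzyme A carrier Slc25a42 (log2 fold change -1.94), the pantothenate kinase Pank1 (-1.89) and Bbox1 (-1.86), which makes carnitine. Cpt1c, the neuronal carnitine palmitoyltransferase named after its values were seen, rose (log2 fold change 2.29, edgeR adjusted p = 0.0149) from low counts: its expected counts were 10, 26 and 1 in Sirt5+/+ livers and 45, 97 and 111 in Sirt5-/- livers. Of other acyl-CoA synthetases 5 of 7 tested fell, with the smallest p-values in Acsm1 (-2.33), Acsm5 (-1.92) and Acsf2 (-2.07). Of other thioesterases 3 of 7 tested fell and 1 rose. Acot4 (-2.50) and Acot12 (-2.02) fell, whereas Acot9 stood at 3.04, 2.89 and 3.67 CPM in Sirt5+/+ livers and at 8.40, 9.54 and 10.7 CPM in Sirt5-/- livers and rose (1.59). Of other mitochondrial acyl-CoA enzymes 10 of 11 fell, with the smallest p-values in Acad8 (-1.42), Ivd (-2.19) and Mut (-1.60), which act in amino acid breakdown. Of 12 regulators 8 fell, including Creb3l3 (-2.35), a fasting-induced transcription factor, Acacb (-3.37), which makes the malonyl-CoA that inhibits Cpt1a, and Sirt3 (-2.18), the mitochondrial deacetylase. Ppara, also named after its values were seen, stood at 19.5, 27.1 and 81.9 against 26.5, 11.2 and 5.44 CPM, with overlap, and did not pass (edgeR adjusted p = 0.108).

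**Figure D3:**
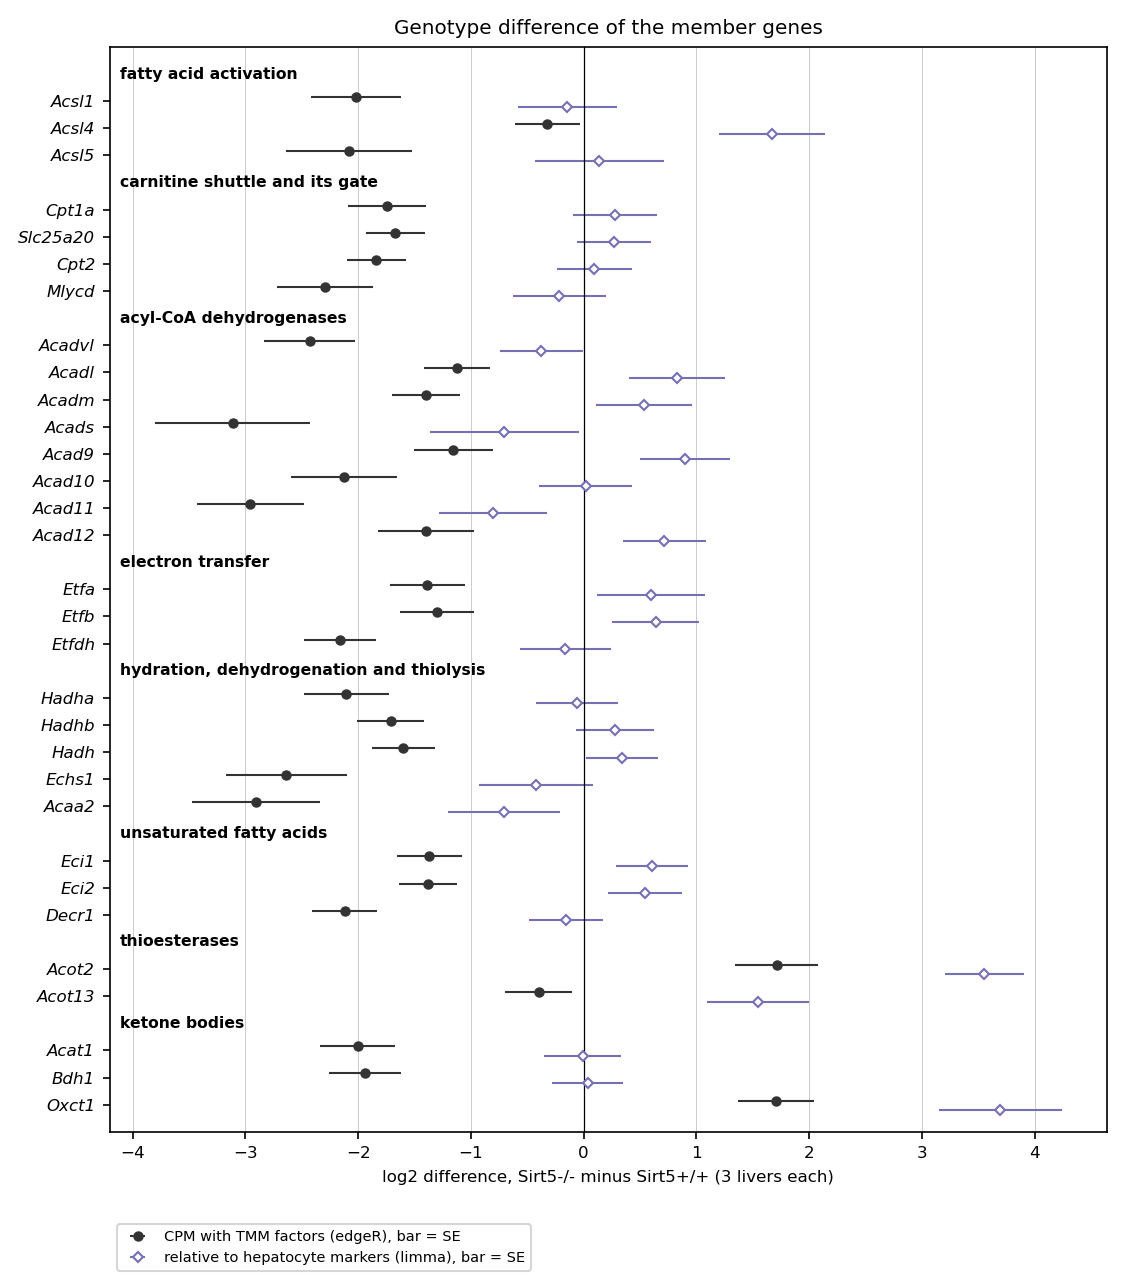
Log2 difference between genotypes (Sirt5-/- minus Sirt5+/+, 3 livers each) for the 31 members by role, with its standard error as a bar. Filled circles are TMM-scaled CPM and lie under 0 for all members but Acot2 and Oxct1, and open diamonds, relative to hepatocyte markers in the same liver, scatter around 0 with Acsl4, Acot13, Acot2 and Oxct1 to the right.

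Since hepatocyte markers fell as well, each member was set against their mean in the same liver. The members' median relative log2 change was 0.27, and no member was lower in Sirt5-/- livers by limma at an adjusted p under 0.05, against 0.358% of all genes tested. Higher relative to the markers were 4 members, Acsl4 (1.67), Acot13 (1.55), Acot2 (3.55) and Oxct1 (3.69), against 78.1% of all genes tested, so this count is under the background. None of the 27 members that fell in CPM passed this test against the mean of the markers, with relative changes from -0.80 (Acad11, SE 0.48) to 0.90 (Acad9, SE 0.40). With the median of the markers in place of their mean, Acad9 passed as higher (1.05, limma adjusted p = 0.034). Without the third Sirt5+/+ liver 7 members were higher, Acadl, Etfa and Etfb being added, and 4 were lower, namely Acads (-1.47), Acad11 (-1.21), Acaa2 (-1.19) and Echs1 (-0.94), with limma adjusted p of 0.00865 to 0.0425. Of all genes tested, 82.1% were then higher and 1.1% lower. Without the liver richest in mitochondrial transcripts in each genotype 5 members were higher, Acadl being added, and Acads alone was lower (-1.17), against 83.2 and 0.865% of all genes tested. The call of Acsl4 was lost without Sirt5-/- liver 3.

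**Figure D4:**
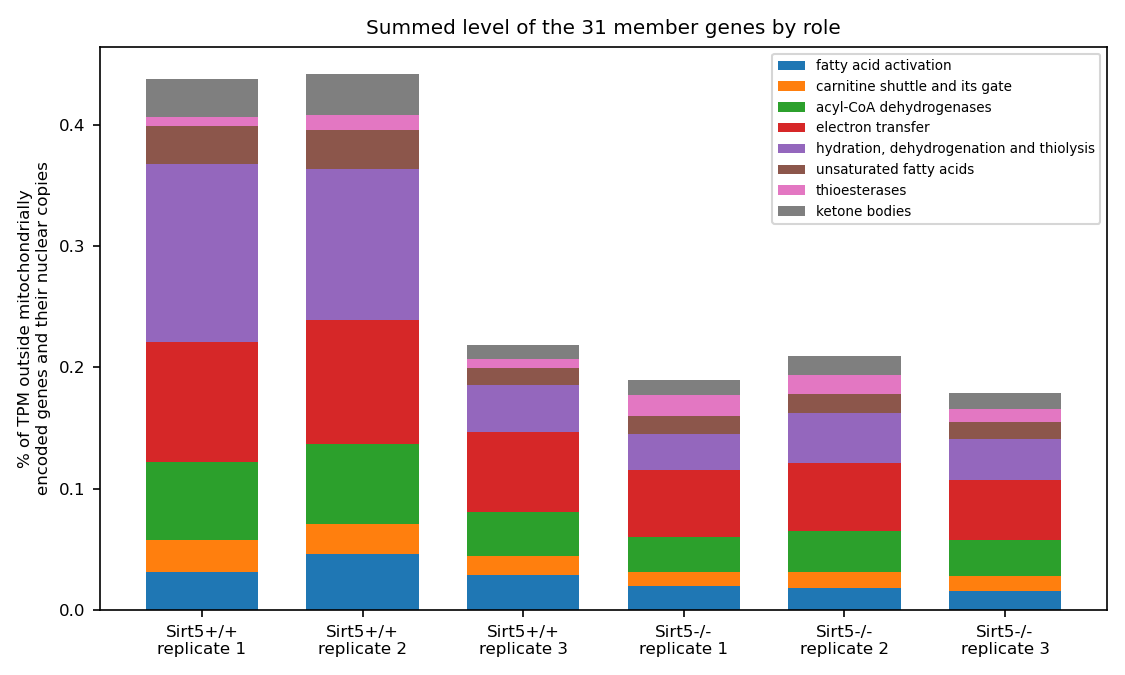
Summed TPM of the members in each liver as a percent of all TPM outside mitochondrially encoded genes and their nuclear copies, stacked by role. The first and second Sirt5+/+ livers reach 0.438 and 0.442%, the third 0.219%, and the Sirt5-/- livers 0.179 to 0.210%.

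Summed as levels per length, the members took 0.438, 0.442 and 0.219% of TPM outside mitochondrial genes in Sirt5+/+ livers and 0.189, 0.210 and 0.179% in Sirt5-/- livers. The means were 0.366 ± 0.128% and 0.193 ± 0.0154% (SD, n = 3 each), a 1.90-fold difference with an exact two-sided permutation p of 0.1, the smallest that 3 against 3 allows. The third Sirt5+/+ liver stood just above the highest Sirt5-/- liver. Hepatocyte markers in the same unit took 14.8, 13.3 and 8.05% against 7.45, 6.73 and 5.28%, a 1.86-fold difference. Over all TPM, mitochondrial transcripts included, the members' shares overlapped (0.376, 0.374 and 0.0829% against 0.0783, 0.131 and 0.123%, exact permutation p = 0.3). By role, hydration, dehydrogenation and thiolysis had shares of 0.147, 0.125 and 0.0383% against 0.0294, 0.0410 and 0.0343% outside mitochondrial genes, where the third Sirt5+/+ liver fell inside the range of the other genotype. The electron transfer genes had shares of 0.0987, 0.103 and 0.0661% against 0.0552, 0.0564 and 0.0490%, without overlap. For ketone body enzymes the shares were 0.0314, 0.0341 and 0.0116% against 0.0122, 0.0155 and 0.0136% (exact permutation p = 0.4), and for the enzymes of unsaturated fatty acids 0.0311, 0.0320 and 0.0140% against 0.0153, 0.0159 and 0.0141% (exact permutation p = 0.4). In both of these roles the third Sirt5+/+ liver lay under every Sirt5-/- liver. Thioesterases were the only role with a higher mean in Sirt5-/- livers (0.00914 ± 0.00265% against 0.0144 ± 0.00339%, SD, n = 3 each, exact permutation p = 0.2), with overlap.

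The third Sirt5+/+ liver, richest in mitochondrial transcripts, set most of the spread within its genotype. It was the lowest Sirt5+/+ liver for 21 members and the highest for 7, and its log2 distance from the other Sirt5+/+ livers ran from -2.83 to 0.78. The coefficient of variation was larger among Sirt5+/+ than among Sirt5-/- livers for 27 of 31 members, with medians of 35.5 and 14.3%. Neither the order of the livers nor this variation was taken over all genes, so they are not shown to be particular to the members. Without that liver all 31 calls were the same and the members' median was -1.81. Over all genes 3656 were then lower and 3991 higher, of 15608. Without the liver richest in mitochondrial transcripts in each genotype all 31 calls were the same as well, with a median of -1.93. Over all genes 3535 were then lower and 3904 higher, of 15527. A difference in the GC content of the transcripts was looked at across the 31 members as a description, since genes are not independent replicates. Pearson's r with GC was -0.10 for the log2 fold change, 0.54 for the distance of Sirt5+/+ liver 1 from its genotype and -0.28 for that of liver 3. Over 14791 tested genes the same values were -0.02, 0.45 and -0.25, so the members were near all genes in this. A fit with a GC correction gave the same call for all 31 members.

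**Figure D5:**
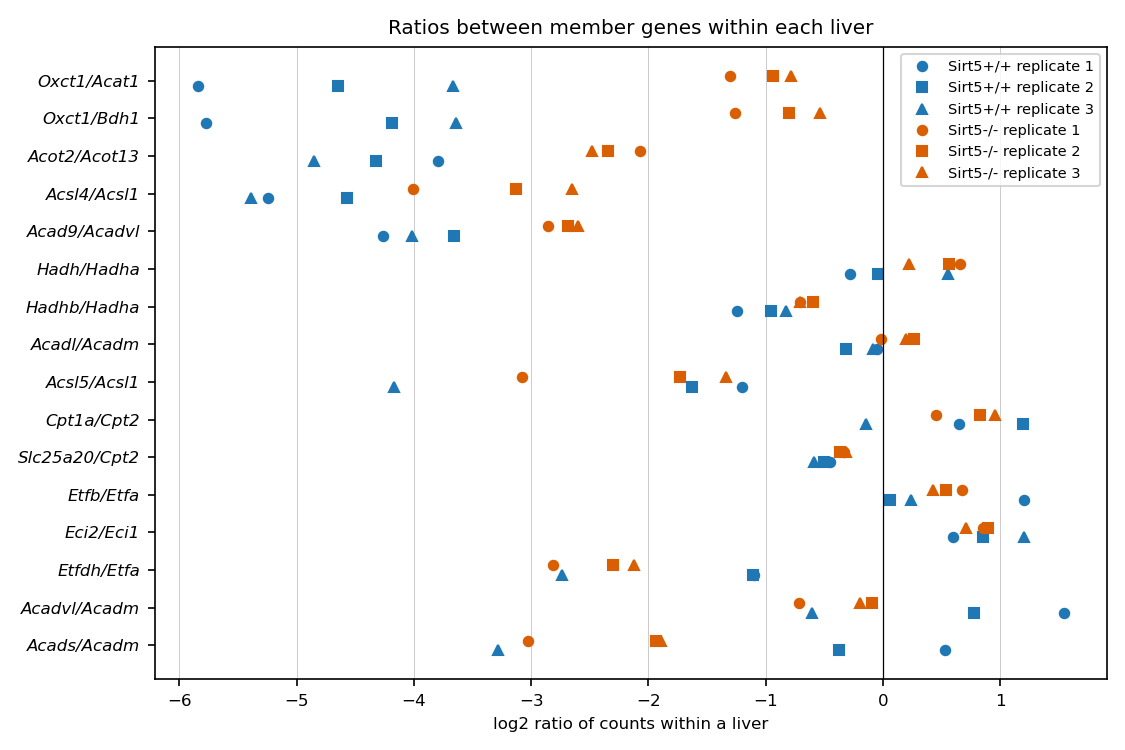
Log2 ratios of counts between pairs of members within each liver (x axis), 16 pairs ordered by the difference between genotypes, 1 point a liver. The ratios of Oxct1 to Acat1 and to Bdh1, of Acot2 to Acot13, of Acsl4 to Acsl1 and of Acad9 to Acadvl lie further right in all 3 Sirt5-/- livers.

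Ratios within a liver do not depend on scaling between libraries. Of 16 ratios 8 did not overlap between genotypes. Each of these had an exact two-sided permutation p of 0.1, the smallest possible, and an adjusted p of 0.2 over the 16, so none could pass. The share without overlap was not taken over other pairs of genes, so this count is not shown to be particular to the members. Of single genes tested, 24% did not overlap lower and 25.8% higher in CPM. Oxct1 to Bdh1 had log2 ratios of -5.77, -4.19 and -3.64 in Sirt5+/+ livers and -1.26, -0.80 and -0.54 in Sirt5-/- livers, a 12.7-fold difference. Without Sirt5+/+ liver 1 the difference was 8.28-fold. Against Acat1 the ratio of Oxct1 differed 13.1-fold, and 8.89-fold without that liver. Both ratios were higher in every Sirt5-/- liver than in any Sirt5+/+ liver, although Oxct1 counts stayed under those of Bdh1 and Acat1 in all 6. Acsl4 to Acsl1 had log2 ratios of -5.25, -4.57 and -5.39 against -4.01, -3.13 and -2.65, a 3.51-fold difference. Acot2 to Acot13 differed 4.08-fold, with the doubt about Acot2 given above, and Acad9 to Acadvl 2.41-fold. Smaller differences without overlap were found for Slc25a20 to Cpt2 (1.13-fold), Acadl to Acadm (1.23-fold) and Hadhb to Hadha (1.27-fold), all higher in Sirt5-/- livers. The other 8 ratios overlapped, among them Etfb to Etfa (log2 difference 0.04, SD 0.62 and 0.12 within genotypes) and Eci2 to Eci1 (-0.06, SD 0.31 and 0.10).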

How the data were processed

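Bulk RNA sequencing of 6 livers, 3 of each Sirt5 genotype, was analysed from 1 deposited table. The submitters' processing notes name HISAT2 2.1.0, RSEM 1.3.1 and DESeq2 1.24.0, without their roles, and the genome build is not given in the sources used here. Expected counts and TPM per gene were used as deposited by the authors; the log2 fold changes, p-values and adjusted p-values in the table are the authors' own and were used only to compare calls. All 55536 gene IDs and names match GENCODE M21, and coordinates are on its build, GRCm38.

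Expected counts were rounded to whole numbers, filtered with filterByExpr (minimum count 10, minimum total 15), scaled with TMM factors (0.396 to 1.68) and fitted in edgeR 4.0.16 with genotype alone; its two-sided quasi-likelihood test was adjusted by Benjamini-Hochberg over 14799 genes, with 0.05 as the threshold. An SE was taken as the log2 difference over the root of the F statistic. The scripts were tested on simulated counts, in which 74 of 200 genes given a change were recovered and 2 unchanged genes were called. A gene that did not pass is therefore not shown to be unchanged. Levels relative to hepatocyte markers are log2 CPM (prior count 2) minus the mean (or, as an alternative, the median) of 18 markers, tested with limma 3.58.1. Ratios added 0.5 to each count. A count of 3 equals 0.0827 to 0.393 CPM with TMM factors, under which levels cannot be told from none. Alternatives were other scalings, filters, DESeq2 1.42.0, limma-voom, a GC correction and leaving out livers. The text names all 31 members and, of each further list, up to 3 genes with the smallest p-values; 1 further list is not reported here. The members and lists were chosen with earlier results of these data known, and the promoter motifs with the members' values known.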

Additional observations from a re-analysis of the deposited data

How the results depend on the processing

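Of the 31 members, the call was the same for all under DESeq2, DESeq2 size factors, limma-voom, no filter on low counts, a stricter filter, the GC correction, removal of mitochondrial genes and copies, without the richest mitochondrial liver of each genotype and without Sirt5+/+ liver 3. Over all genes, lower calls in these fits ran from 2278 (of 11821, stricter filter) to 3656 (of 15608, without Sirt5+/+ liver 3). Higher calls ran from 2198 to 3991 in the same 2 fits. Upper-quartile factors lost 2 calls, Acad9 and Acad12, with 1953 lower and 2963 higher of all 14799 genes. With library totals 5 members were lower, the median was -1.24, and Acsl4 and Acot13 turned to 0.28 and 0.29; with totals outside mitochondrial genes and copies, chosen after seeing the data as were the GC correction and, for levels relative to hepatocyte markers, the removal of the richest livers, 14 were lower, the median was -0.92 and these 2 genes turned to 0.50 and 0.45. Over all genes, library totals gave 2438 higher and 325 lower genes and totals outside mitochondrial genes 5622 and 738, against 2575 and 2525. Leaving out 1 liver left 18 to 27 members lower and 2 higher, with a median of -1.58 to -1.81. Over all genes, lower calls then ran from 1090 (of 15123, without Sirt5-/- liver 3) to 3656 (of 15608, without Sirt5+/+ liver 3). Higher calls ran from 1441 to 3991 in the same 2 fits. Relative to hepatocyte markers, 3 to 7 members were higher and 0 to 4 lower with 1 liver left out. Of all 14799 genes, 9306 to 12146 were then higher and 21 to 163 lower. Without the richest livers 1 member was lower, against 128 of all genes. With the median of the markers 5 members were higher, against 12106 of all genes. Among the ratios, with 1 liver left out, Acsl5/Acsl1 ran from -0.64 to 0.85 (below 0 also at -0.07), Cpt1a/Cpt2 from -0.17 to 0.50, Etfb/Etfa from -0.18 to 0.39 (below 0 also at -0.09 and -0.02) and Eci2/Eci1 from -0.21 to 0.10; none of them had passed. The cause of these changes was not tested. Same-numbered livers correlated in their deviations at -0.19, 0.12 and -0.20, and Sirt5+/+ liver 3 with Sirt5-/- liver 1 at 0.27. With 3 livers a genotype, these values cannot decide whether the numbers pair the livers. A replicate block left 23 members lower and 2 higher, against 1665 and 1978 of 14799 genes. The members' median was then -1.66, and the calls of Acsl5, Acadl, Acad9 and Acad12 were lost.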
